A study of Mus musculus with 2 samples.

Results

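The amino acid response genes described here are 33 genes known as targets or partners of the transcription factor ATF4: its fellow regulators, the enzymes that make serine, asparagine, proline and cysteine, amino acid transporters, brakes on translation and secreted stress proteins. They were chosen by name, and their probes were found by matching the RefSeq accession of each probe to a gene. Of the 33, 32 had at least 1 probe, 46 probes in all, out of 17302 genes and 25091 matched probes on the array. Pycr1 had no matched probe. The genes were measured in mouse hybridoma cells of the line 1H5F9, which secrete antibody and come from the fusion of a B cell and a myeloma cell, so the line is a tumour hybrid and not a normal B cell. One culture, here called untreated, was given 0 µg/ml of the bursal peptide BSP-II for 4 h, and the other was given 5 µg/ml for 4 h. Both stood in serum-supplemented medium, and the labels name no other treatment and no genetic change in either. The design text speaks of 2 experiments, of which the arrays numbered 1 are analysed here. Each culture gave 1 array with 1 colour (Cy3), both on the same slide, so there is no replicate, no test and no p-value: "higher" and "lower" describe these 2 arrays.

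When an amino acid runs short, uncharged tRNA activates the kinase GCN2, which phosphorylates the initiation factor eIF2α and slows translation. ATF4 messenger RNA carries upstream reading frames that let it be translated better under those conditions, so ATF4 protein can rise with little change in its messenger RNA. ATF4 binds DNA with C/EBP-family partners and raises genes that import or make amino acids, charge tRNA and, under lasting stress, favour cell death. Stress of the endoplasmic reticulum reaches the same step through the kinase PERK, a route of interest in antibody-secreting cells, which load that organelle heavily.

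Most of the amino acid response genes were slightly higher on the BSP-II array, but the Atf4 transcript itself was nearly level. Of the 33, 31 were well above background on both arrays, and 23 of these 31 lay above the median of all genes. Above 0 lay 21 of the 31, beside 5750 of all 12864 genes. Only 11 of the 31 differed by more than the error Agilent's software gives their spots, as did 33.3% of all genes. The pseudokinase gene Trib3 and the hormone gene Fgf21 were the highest, at 1.66-fold and 1.77-fold. Both sizes were unsteady: the log2 difference of Trib3 was 0.73 at its brighter probe and 0.15 at the other, and that of Fgf21 was 0.82, or 0.24 with no background subtraction. Chac1, which breaks down glutathione, and Ddit4, an inhibitor of mTORC1, were both 1.45-fold higher. Atf4 was at 1.02-fold, the serine synthesis genes were all within 1.2-fold, and Sesn2, a leucine sensor that also restrains mTORC1, was the lowest at 0.743 of its untreated level.

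Differences are log2 values of BSP-II minus untreated, taken after each array was divided by its 75th percentile, which was 309 without the peptide and 356 with it. Signals are printed before that division, so an unscaled signal runs somewhat higher on the BSP-II array for a gene without a difference. The median difference of the 31 members was 0.14, with quartiles of −0.02 and 0.31, beside −0.03 for all 12864 genes measured on both arrays (quartiles −0.19 and 0.11). At least 1.2-fold higher, a log2 difference of 0.26, were 9 members (Fgf21, Trib3, Chac1, Ddit4, Slc6a9, Cth, Eif4ebp1, Cbs and Aldh18a1). Of all genes 8.66% were that much higher. At least 1.2-fold lower was 1 member, Sesn2, beside 18.1% of all genes, and 21 lay between. At least 1.5-fold higher were 2 members, Trib3 and Fgf21, beside 1.21% of all genes.

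Dim probes scatter more than bright ones, and 24 of the 31 members were at or above the median level of all genes. Among these 24, 7 were at least 1.2-fold higher, beside 4.76% of the 6432 brighter genes, and 0 were at least 1.2-fold lower, beside 5.99%. Their median difference was 0.11, and that of the brighter genes −0.0033. Ordered from the highest difference down, Trib3 stood at place 8 of the 6432 brighter genes, Chac1 at 22, Ddit4 at 23, Slc6a9 at 82, Cth at 100 and Eif4ebp1 at 105. These places describe genes picked for their known link to ATF4 with earlier results of the arrays in view. They test nothing.

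The error that Agilent's software gives each spot came to a median of 0.20 per log2 difference over all genes, and 11 of the 31 members differed by more than their own error, as did 33.3% of all genes. That error leaves out differences between cultures and RNA samples. Of the hybridoma's plasma cell markers 9 of 9 were well above background on both arrays (summed signal 240433 and 254955), and so were 7 of 8 B lineage markers (66790 and 68247), Pax5 being the exception. Of the T cell markers 5 of 6 were well above background untreated and 6 with BSP-II, with summed signals of 406 and 368. For fibroblasts it was 5 of 6 on both arrays (127 and 142), and for macrophages and granulocytes 3 and then 4 of 7 (146 and 216), with Lyz2, Elane and S100a8 above background on neither. The part of such cells in the results was not tested. Detection was unequal: 24683 probes were well above background untreated, but 27284 with BSP-II. The signals of negative control spots had a standard deviation of 5.34 untreated, but 1.39 with BSP-II. A probe called with BSP-II alone is therefore not counted as a difference between the cultures. As in any bulk RNA sample, fewer expressing cells and less RNA per cell cannot be told apart.

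**Figure D1:**
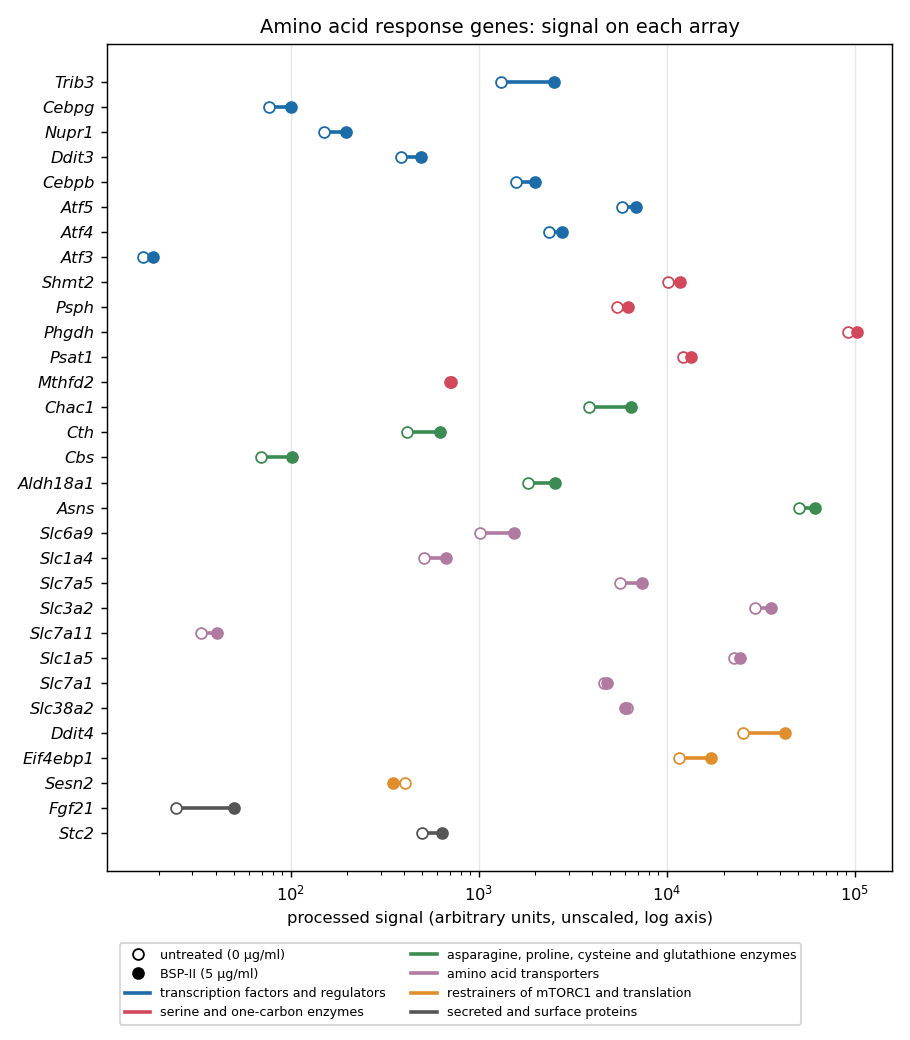
Processed signal of each member's brightest probe (log axis, arbitrary units, not scaled between arrays) on the untreated array (open) and the BSP-II array (filled), coloured by role, 1 array each. Trib3 (1317 and 2515), Ddit4 (25444 and 42635) and Fgf21 (24.5 and 49.9) have some of the longest lines, and Sesn2 (406 and 348) and Slc38a2 (6109 and 6011) alone run leftward.

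Promoter sequence gives a view of the group that does not depend on the arrays. The element bound by ATF4 with a C/EBP partner has the core TGATGNAA, and it was searched on both strands in RefSeq's windows of 250 bases before to 50 bases after each gene's start (GRCm38.p6); a gene with several windows counted once if any held it. Of the 33 members 29 had such a window, and 10 of these (34.5%) held the core, beside 4.51% of all 27025 genes with a window and 3.05% of the 10365 of them measured on both arrays. The members were listed as known ATF4 targets, several through this very element, so the share is a description of the list. All 11 matches are printed, 30 bases each, to show the element in the members that hold it. Each is written 5′ to 3′ along the strand on which the core reads as above, with the core in capitals.

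Asns (chr6:7693214-7693243, core 23 to 16 bases before the start): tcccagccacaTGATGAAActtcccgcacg

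Atf3 (chr1:191183425-191183454, 110 to 103 before): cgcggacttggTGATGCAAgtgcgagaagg

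Chac1 (chr2:119351038-119351067, 193 to 186 before): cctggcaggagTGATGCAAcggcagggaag

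Fgf21 (chr7:45615611-45615640, 139 to 132 before): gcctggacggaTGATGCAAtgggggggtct

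Nupr1 (chr7:126625562-126625591, 110 to 103 before): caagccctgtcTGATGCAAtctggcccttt

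Pycr1 (chr11:120643833-120643862, 103 to 96 before): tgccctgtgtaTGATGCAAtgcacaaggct

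Slc1a4 (chr11:20332699-20332728, across the start): caggctggagaTGATGCAAcgcaggaggca

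Slc7a11, upstream match (chr3:50443661-50443690, 66 to 59 before): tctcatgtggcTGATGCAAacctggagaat

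Slc7a11, downstream match (chr3:50443642-50443671, 47 to 40 before): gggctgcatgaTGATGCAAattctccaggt

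Trib3 (chr2:152344028-152344057, 15 to 22 bases after the start): ccccgcccggcTGATGTAAacctgagctaa

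Vldlr (chr19:27216809-27216838, 200 to 193 before): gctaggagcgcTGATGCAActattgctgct

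The core read TGATGCAA in 9 of the 11 matches, TGATGAAA at Asns and TGATGTAA at Trib3. It lay on the gene's own strand at Asns, Pycr1 and the upstream match of Slc7a11, and on the opposite strand elsewhere. The 8 measured genes with a match had a median log2 difference of 0.18, from −0.03 (Atf3) to 0.82 (Fgf21), and 3 of them were at least 1.2-fold higher. The 19 with a window and no match had a median of 0.03, from −0.43 (Sesn2) to 0.54 (Ddit4), and 4 were at least 1.2-fold higher. The 4 with no window had a median of 0.27, from −0.10 (Slc1a5) to 0.37 (Cth), and 2 were at least 1.2-fold higher. Of all genes 8.66% were that much higher. The ranges of the groups overlap widely, and a gene without these letters in this window may carry them elsewhere.

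The 250 bases before the start do not reach the match of Trib3, which lies after it. They are not printed for Atf3, Nupr1, Slc1a4 and Slc7a11, which hold the core and differed by −0.03, 0.19, 0.18 and 0.08. They are printed for 3 members, for the surroundings of the element: Chac1 and Fgf21, which hold it and were among the members with the largest differences, and Asns, a textbook ATF4 target that holds it close to its start and barely differed here. Each is read along the gene's strand and ends at the base before the start, so the core appears in capitals as TTGCATCA where it lies on the opposite strand.

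Chac1 (chr2:119350992-119351241, plus strand): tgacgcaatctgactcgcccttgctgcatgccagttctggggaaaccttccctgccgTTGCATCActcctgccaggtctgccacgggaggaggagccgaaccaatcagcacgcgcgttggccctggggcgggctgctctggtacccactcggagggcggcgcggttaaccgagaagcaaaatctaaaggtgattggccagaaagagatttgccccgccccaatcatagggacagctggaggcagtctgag

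Fgf21 (chr7:45615491-45615740, minus strand): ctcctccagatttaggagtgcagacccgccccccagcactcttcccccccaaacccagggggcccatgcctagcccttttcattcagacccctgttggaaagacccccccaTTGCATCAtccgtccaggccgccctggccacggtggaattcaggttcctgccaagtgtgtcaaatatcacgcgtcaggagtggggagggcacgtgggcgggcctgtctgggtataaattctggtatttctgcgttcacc

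Asns (chr6:7693210-7693459, minus strand): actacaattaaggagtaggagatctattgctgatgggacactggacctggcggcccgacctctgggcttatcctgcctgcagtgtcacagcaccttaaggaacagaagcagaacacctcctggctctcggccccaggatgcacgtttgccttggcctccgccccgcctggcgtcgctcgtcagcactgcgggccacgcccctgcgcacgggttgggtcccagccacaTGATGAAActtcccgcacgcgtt

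Among the regulators, 1 of 8 was at least 1.2-fold higher and none was 1.2-fold lower, with a median log2 difference of 0.15. The shares of all genes were 8.66% higher and 18.1% lower, so the count higher was near that of all genes. Of the 5 brighter regulators, 1 was higher and 0 lower, beside 4.76% and 5.99% of the brighter genes. Trib3, a pseudokinase that ATF4 induces and that in turn restrains ATF4 and the kinase AKT, read 1317 untreated and 2515 with BSP-II, a log2 difference of 0.73 ± 0.20 (Agilent's error, as in all such values below). Its other probe read 531 and 680, a difference of 0.15. The probes went the same way and differed in size by 0.58, more than any other pair of member probes, and with their median Trib3 was at 0.44.

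Atf4 itself read 2364 and 2768, a log2 difference of 0.02 ± 0.20. The difference was smaller than the spot error, and the arrays do not measure the protein. Ddit3, which encodes the stress factor CHOP, read 386 and 492 (0.15). The C/EBP family members that pair with ATF4 lay close by: Cebpb read 1570 and 1998 (0.14), and Cebpg read 76.4 and 100.2 (0.19), with 0.17 at another probe. The last probe of Cebpg read 5.96 and 11.1 and was well above background on the BSP-II array alone, so no fold is given. Because detection was unequal, that call is not counted as a difference.

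Nupr1, a small stress-induced nuclear protein, read 150 and 197 (0.19). Atf5, an ATF4-related factor, read 5795 and 6832 (0.03), at a spot with 2 or more 2-fold different spots nearby, the only member whose chosen spot lay in such a place (8.08% of all genes did). Atf3, an ATF4-induced repressor, was near the detection limit at 16.4 and 18.4, with a difference of −0.03 ± 0.33. Ddit3, Cebpb, Cebpg and Nupr1 thus lay between 0.14 and 0.19, each within its spot error.

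The serine and mitochondrial folate enzymes, which feed glycine and one-carbon units to nucleotide synthesis, were level or slightly low. All 5 were within 1.2-fold, with a median log2 difference of −0.05, close to that of all genes. Phgdh, the first and committing enzyme of serine synthesis, read 91507 and 102209 at its brightest probe (−0.05), and its other probes gave 0.05 and 0.15. Psat1, the next enzyme, read 12238 and 13463 (−0.07). Psph, the last, read 5411 and 6193 (−0.01), with −0.03 at its other probe. The pathway thus showed no step apart from the rest.

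Shmt2, which splits serine to glycine in mitochondria, read 10181 and 11702 (−0.0042). Mthfd2, the mitochondrial enzyme downstream of it and a frequent marker of ATF4 activity, read 706 and 707, at −0.20 ± 0.20 the lowest of the group. Relative to the median of all genes, Mthfd2, Psat1 and Phgdh lay below it and Psph and Shmt2 above it, by 0.18 at most.

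The enzymes of asparagine, proline, cysteine and glutathione metabolism had 4 of 5 measured members at least 1.2-fold higher and none lower, with a median of 0.34. Beside these counts stand 8.66% and 18.1% of all genes. Of the 4 brighter ones, 3 were higher and 0 lower, beside 4.76% and 5.99% of the brighter genes. Chac1, which cleaves glutathione and follows ATF4 and CHOP, read 3839 and 6434, a log2 difference of 0.54 ± 0.20. Both enzymes of the route from homocysteine to cysteine were higher by similar amounts. Cth, its second step, read 415 and 618 (0.37), and Cbs, its first, read 69.5 and 101.7 (0.34 ± 0.21). With no background subtraction Cbs was at 0.20, under 1.2-fold, and Cth at 0.33.

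Aldh18a1, which starts proline synthesis from glutamate, read 1818 and 2538, a difference of 0.28 that is just past 1.2-fold. Asns, which makes asparagine and is the classic target of this response, read 50173 and 61113, a difference of 0.08 ± 0.20. Of this role only Asns stayed under 1.2-fold.

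**Figure D2:**
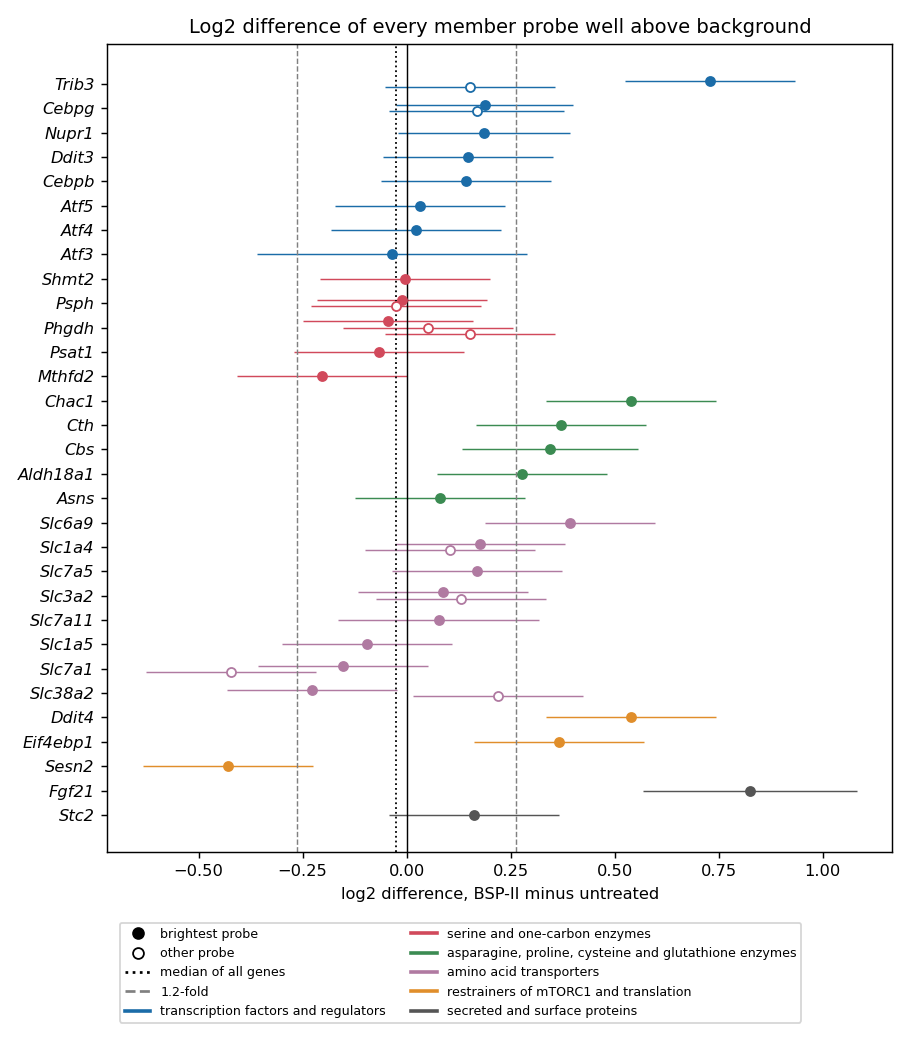
Log2 difference (BSP-II minus untreated) of each member probe well above background on both arrays, 40 probes of 31 genes, with bars for Agilent's propagated spot error, which is not a spread between replicates. Filled points are the brightest probe of a gene and open points its others: the probes of Trib3 (0.73 and 0.15) and Slc38a2 (−0.23 and 0.22) lie apart, and the serine enzymes lie around the dotted all-gene median.

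The amino acid transporters went both ways. Of 8, 1 was at least 1.2-fold higher, beside 8.66% of all genes, none was 1.2-fold lower, beside 18.1%, and the median was 0.08. Of the 7 brighter ones, 1 was higher and 0 lower, beside 4.76% and 5.99% of the brighter genes. Slc6a9, a glycine transporter, was the highest, at 1019 and 1543, a log2 difference of 0.39 ± 0.20. Slc1a4, a carrier of small neutral amino acids, read 510 and 665 (0.18), with 0.10 at its other probe.

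Slc7a5 and Slc3a2 encode the light and heavy chains of the carrier that brings in leucine and other large neutral amino acids. Slc7a5 read 5659 and 7333 (0.17), and Slc3a2 read 29325 and 35904 (0.09), with 0.13 at its other probe. Both chains were thus slightly positive, each by less than the spot error.

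Slc7a11, the cystine importer that supplies glutathione synthesis, was dim, at 33.3 and 40.4 (0.08 ± 0.24). Its other probes were well above background on the BSP-II array alone, at 13.1 and 19.5 for one and 7.20 and 11.1 for the last. No fold is given for either, and neither call is counted as a difference, because detection was unequal. Slc1a5, the main glutamine carrier of many dividing cells, read 22717 and 24497 (−0.10).

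Slc7a1, which carries arginine and lysine, read 4628 and 4800 (−0.15) at its brightest probe and 4618 and 3972 (−0.42) at the other. The second probe passed 1.2-fold lower and the first did not. Slc38a2, a glutamine and alanine carrier that adapts to amino acid supply, read 6109 and 6011 (−0.23) at one probe and 1563 and 2098 (0.22) at the other. The probes of Slc38a2 thus pointed in opposite directions, and no direction can be given for the gene.

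The restrainers of mTORC1 and translation held both a high and a low extreme of the group. Ddit4, which encodes REDD1 and inhibits mTORC1 through the TSC complex, read 25444 and 42635, a log2 difference of 0.54 ± 0.20. Eif4ebp1, the repressor of cap-dependent initiation that mTORC1 inactivates, read 11542 and 17152 (0.37); its other probe was above background on neither array. Sesn2, which holds mTORC1 back when leucine is short, read 406 and 348, a difference of −0.43 ± 0.20. Sesn2 was thus opposite in direction to the other brakes, and also to Sesn3 (110 and 157, 0.31), whereas Sesn1 was at −0.07.

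Of the secreted and surface proteins, Fgf21, a hormone secreted under metabolic stress, had the largest difference of the 31 measured members, 0.82 ± 0.26, at a low signal of 24.5 and 49.9. With no background subtraction it was at 0.24 and with normexp correction at 0.44, so its size varied with the background correction. Its other probe was above background on neither array (2.36 and 4.64). Stc2, a secreted glycoprotein of calcium and stress responses, read 496 and 639 (0.16). Vldlr, a lipoprotein receptor, was above background on neither array (2.92 and 4.73).

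**Figure D3:**
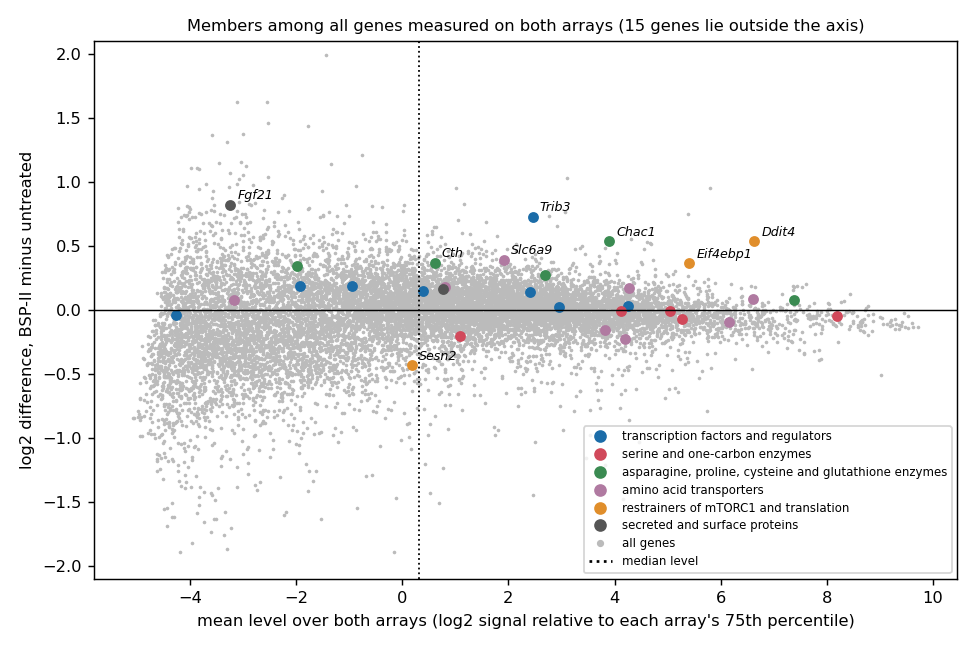
Log2 difference (BSP-II minus untreated) against the mean scaled level for the genes measured on both arrays (grey), with the 31 members coloured by role; the dotted line is the median level, and 15 genes lie outside the axis. The cloud widens to the left, where Fgf21 lies, whereas Trib3, Chac1, Ddit4 and Eif4ebp1 sit at the upper edge of its narrow right-hand part.

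Other genes of the pathway are described as whole lists by known role, chosen like the members with earlier results of these arrays known. Beside each list's counts stand the shares of all genes, 8.66% at least 1.2-fold higher and 18.1% lower. Under median scaling those shares were 19.9% and 11.3%, and with the authors' values 20.6% and 9.58%, so list counts moved with the scaling. Among the brighter genes the shares with the main scaling were 4.76% higher and 5.99% lower. In the list of 32 further genes reported as ATF4 targets, 30 were measured, 10 were at least 1.2-fold higher and none was 1.2-fold lower, and the median was 0.14. Of that list's 22 brighter genes 5 were higher and 0 lower. Ndrg1, a stress-responsive gene that hypoxia also induces, read 238 and 485 (0.82). Adm2, an adrenomedullin-family hormone, read 151 and 263 (0.60), and Soat2, which esterifies cholesterol, read 34.5 and 58.3 (0.55).

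Txnip, the thioredoxin-binding protein, read 6286 and 10506 (0.54), with 0.58 at its other probe. Several of these genes answer to hypoxia or glucose as well, and the list does not separate those inputs. Near 0 lay Bcat1 (0.03), Atg7 (0.0041) and Herpud1 (−0.01), and the lowest was Trib1 (−0.15), a relative of Trib3.

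The cytosolic aminoacyl-tRNA synthetases, which charge tRNA and are induced by ATF4, lay above the median of all genes in 12 cases of 13, the tRNA exporter Xpot included. Only 2 were at least 1.2-fold higher and none was lower; the median was 0.09. Cars read 1663 and 2396 (0.32), with 0.31 and 0.35 at its other probes, and Mars1 read 1653 and 2315 (0.28), with 0.29 at its other probe. Nars and Gars were each at 0.23. The probes of Cars and Mars1 differed from each other by far less than the spot error.

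The list upstream of ATF4 held the eIF2α kinases and their regulators, phosphatase subunits, and the subunits of eIF2 and its exchange factor eIF2B. Of its 15 measured genes 1 was 1.2-fold higher and 1 lower, and the median was 0.03. Both of those were kinases, in opposite directions. Eif2ak2, the kinase PKR that senses double-stranded RNA, read 55.3 and 86.4 (0.44), and Eif2ak3, the endoplasmic reticulum kinase PERK, read 1872 and 1637 (−0.40). Eif2ak4, the amino acid sensor GCN2, was at 0.09. Ppp1r15a and Ppp1r15b, which direct dephosphorylation of eIF2α, were at 0.19 and 0.15.

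The other branches of the unfolded protein response lay on the low side. Of 17 measured genes of the IRE1-XBP1 and ATF6 arms none was 1.2-fold higher and 6 were 1.2-fold lower (Pdia4, Manf, Hspa5, Dnajb9, Ern1 and Calr), beside 18.1% of all genes, and the median was −0.12. The chaperone Hspa5 (BiP) read 66257 and 60386 (−0.34), the secreted factor Manf read 18651 and 16939 (−0.34), at a clustered spot, and the oxidoreductase Pdia4 read 12868 and 11562 (−0.36). With each array scaled to its median, or with the authors' values, none of the 17 was 1.2-fold lower, beside 11.3% or 9.58% of all genes, and their median was 0.0045 or 0.0053. Relative to the median of all genes the list lay between −0.22 and −0.06 in every alternative. Of its 16 brighter genes 0 were 1.2-fold higher and 5 lower with the main scaling, beside 4.76% and 5.99% of the brighter genes.

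Among other amino acid transporters, 3 of 13 measured were at least 1.2-fold higher and 1 was lower, with a median of 0.05. Slc6a6, the taurine carrier, read 482 and 764 (0.46), and Slc7a3, a cationic carrier, read 419 and 580 (0.26). Slc16a10, an aromatic amino acid carrier, had probes at 0.36, −0.36 and −0.0033. Slc38a1, a glutamine carrier, had probes at −0.40 and 0.04. The probes of Slc16a10 and Slc38a1 thus differed in sign, as did those of the member Slc38a2 but not of Slc1a4, Slc3a2 and Slc7a1.

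Other folate enzymes had 0 of 14 measured at least 1.2-fold higher and 2 lower, with a median of −0.06. Tyms, which makes thymidylate, read 3529 and 2884 (−0.50), with −0.39 at its other probe. Mtrr was at −0.43 with 0.06 at its other probe, Mtfmt at 0.23 and Fpgs at 0.19. With median scaling or the authors' values 4 of the 14 were at least 1.2-fold higher and 2 lower, and the median was 0.06.

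Methionine cycle and glutathione synthesis had 0 of 9 measured at least 1.2-fold higher and 3 lower, beside 18.1% of all genes, with a median of −0.02. With median scaling or the authors' values the counts turned to 2 higher and 0 lower, with a median of 0.10. Gclc, the catalytic subunit of the first step of glutathione synthesis, read 2140 and 1930 (−0.35), whereas its modifier Gclm was at 0.20. Mat2a, which makes S-adenosylmethionine, read 41326 and 37890 (−0.33), and Ahcy was at −0.33. Of the list's 7 brighter genes 0 were higher and 3 lower with the main scaling, beside 4.76% and 5.99% of the brighter genes.

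Amino acid sensing and mTORC1 had 4 of 22 measured at least 1.2-fold higher and 2 lower, beside 8.66% and 18.1% of all genes, with a median of 0.0021. With median scaling or the authors' values 7 were higher and 1 lower, with a median of 0.12. Rragd, a lysosomal GTPase that ties amino acids to mTORC1, read 81.5 and 156 (0.73), with 0.92 at its other probe. Eif4ebp2, a close relative of Eif4ebp1, read 5678 and 4615 (−0.50), so these relatives lay in opposite directions. Depdc5, at 0.37, was dim (15.7 and 23.4). Of the list's 14 brighter genes 0 were higher and 1 lower with the main scaling, beside 4.76% and 5.99% of the brighter genes.

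**Figure D4:**
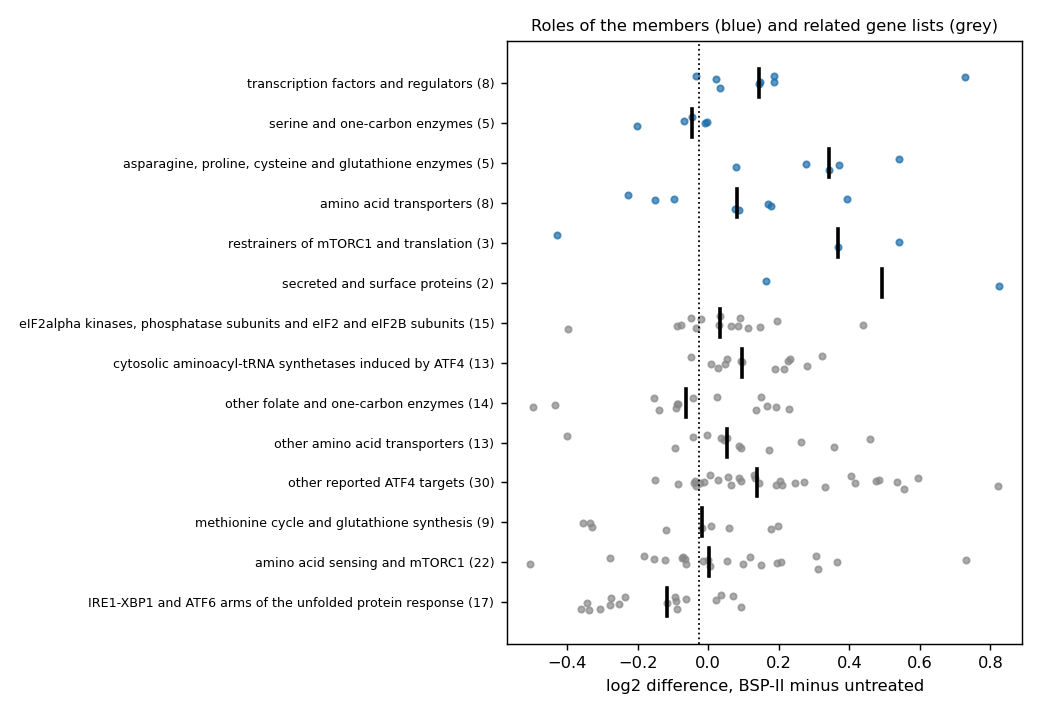
Log2 differences (BSP-II minus untreated) of the members by role (blue) and of the related lists (grey), each point 1 gene by its brightest probe, bars the medians, the number measured in parentheses. The medians run from −0.12 for the IRE1-XBP1 and ATF6 arms to 0.49 for the secreted and surface proteins, of which only 2 were measured; the dotted line is the all-gene median of −0.03.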

How the data were processed

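The submitters' processing notes name Agilent Feature Extraction 10.5.1.1, whose intensity values were deposited as scanner output: a processed signal with background subtracted, its error, and the raw median signal and local background of each spot, per the file headers. The deposited flags (unit "other") mark spots that are saturated (0 gene spots), outliers or well above background. The authors' deposited value table (23296 probes, column medians 2.88 and 2.99) is on a log2 scale: each column was its array's log2 processed signal shifted by −4.85 or −4.94, within 0.001 for 100% of the 23130 single-spot probes compared. Scale and direction are thus known, and what the shift was centred on is not. The array design was built on mm9. Gene names came from a RefSeq table of GRCm38.p6 by unversioned accession: 25091 of 41163 probes (61.0%) matched.

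The log2 processed signal was reduced by each array's 75th percentile over 43190 unflagged gene spots; 189 outlier spots were left out. Spots of a probe were averaged, and a gene was represented by its probe of highest mean level among those well above background on both arrays; the members' other probes are given beside it. Lowest signals well above background were 11.4 and 7.66; the number of arrays limits the precision. For a probe above background on 1 array only, the signals are printed without a fold. With 1 array per group a fold threshold stands in place of a test. The steps were tested on a copy of the untreated array with known differences put in and no scatter added. That test covers the arithmetic alone.

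All members and, of each related list, up to 4 genes with the largest difference are named. Sesn1, Eif2ak4, Bcat1, Atg7, Herpud1, Trib1, Ern1 and Calr were added after their values were seen. The members and lists were chosen with earlier results of these data known. There were 12 alternatives, listed in the closing section. Python 3.11.15, numpy 2.4.6, pandas 2.3.3, statsmodels 0.14.6, matplotlib 3.10.9, R 4.3.3 and limma 3.58.1 were used.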

Additional observations from a re-analysis of the deposited data

How the results depend on the processing

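Alternatives were median, quantile and loess scaling, normexp (offset 50), no background subtraction, the authors' value table, no filter on dim probes, brighter genes only, the median of a gene's probes, each probe counted singly, removal of the median of each spot's surroundings (reaching 10 rows and columns), and omission of clustered spots (at least 2 neighbours, no farther than 3 rows and columns, also 2-fold different in the same sense). The members' median less that of all genes was 0.17 and ran from 0.11 to 0.20. Of 31 measured members, 19 of the 23 above the all-gene median lay above it in every alternative that measured them. Of the 9 at least 1.2-fold higher, 7 were so in every such alternative. Median scaling added 0.12 to every difference and the authors' table, which covers fewer genes, shifted the all-gene median by 0.13: members at least 1.2-fold higher then numbered 16 and 15 in place of 9, beside 19.9% and 20.6% of all genes. At least 1.5-fold higher were 4 members with median scaling and with local medians subtracted, beside 2.39% and 1.49% of all genes, and 1 each with no background subtraction, brighter genes only and the median of probes, beside 0.257%, 0.280% and 1.15%. At least 1.2-fold lower were 0 among brighter genes, 2 with the median of probes (Sesn2 and Slc7a1) and 2 among single probes. Over the alternatives that count genes, those at least 1.2-fold higher ran from 1 to 5 for the regulators, 2 to 6 for the synthetases and 5 to 15 for the other reported targets. The count lower ran from 0 to 6 for the IRE1-XBP1 and ATF6 arms. With each probe counted singly, 16 of 46 probes of the other reported targets were higher and 10 of 29 of those arms lower. The share of all genes higher ran from 4.49% to 20.6%, and lower from 5.71% to 28.1%. Shmt2, Psph, Atf3, Phgdh, Psat1, Slc1a5 and Slc7a11 turned sign in some alternative. Of the 332 single-gene values 328 moved by less than the spot error, but this count cannot measure steadiness. With no filter on dim probes, brighter genes only or clustered spots left out, each measured member kept its value exactly. The spot error, a median of 0.20 over all genes, also exceeds the 0.12 that median scaling adds. Beyond the spot error were Fgf21 (normexp 0.44, no subtraction 0.24), Trib3 (0.44) and Slc38a2 (−0.0045). The last pair moved with the median of probes, which averages differing probes. For Fgf21 the cause was not tested. No paired analysis was possible because each group holds 1 array.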
